A study of Mus musculus with 6 samples.

Results

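The genes described here encode the machinery that copies DNA before a cell divides. They are a named list of 54 genes, matched by symbol on the array's annotation. The list was chosen with earlier results of these data known. It covers origin licensing, origin firing, the polymerases, the sliding clamp, nucleotide supply and chromatin assembly. Of the 54 genes, 53 had at least 1 named probe set, with 116 probe sets in all. A probe set is a group of short probes, designed near the 3′ end of a transcript, that together give 1 signal. For 52 genes at least 1 probe set passed a filter on dim signals and was tested, out of 12947 tested genes in all. Chaf1a was not analysed here. The remaining gene was Tyms, encoding thymidylate synthase, whose 4 probe sets all lay under the filter at a mean signal of 59.7.

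Total RNA of mouse lung was hybridised to Affymetrix whole-genome arrays, 3 from Carm1 knockout mice and 3 from wild-type mice. Carm1 encodes an arginine methyltransferase that works as a coactivator of transcription factors. The study's design text places both genotypes at embryonic day 18.5, and so do the labels of the knockout samples, whereas the wild-type labels call the tissue neonatal. A difference in age between the genotypes and the genotype itself therefore cannot be told apart from the labels alone. No strain, allele or litter was given, and no treatment was named for either group. Values are signals on a linear scale, and differences are given on the log2 scale as knockout minus wild type.

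A replication origin is first marked by the origin recognition complex, and Cdc6 and Cdt1 then load the MCM helicase onto it, a step called licensing. At the start of S phase the CDC7 kinase, Cdc45 and the GINS complex turn the loaded helicase into a moving fork, where polymerases work behind a sliding clamp. Many of these genes are transcribed at the boundary of G1 and S phase under E2F factors, so their transcripts are widely used to mark cells in cycle. In the lung before birth, proliferation slows as the airspaces thin and the alveolar cell types mature.

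Replication genes were higher in the knockout lungs, by a modest amount and across most of the list. Of the 52 genes, 46 had a positive log2 difference, which 52.7% of all tested probe sets had. The median difference was 0.54, or 1.45-fold, against a median of 0.02 over all tested probe sets. In 31 genes all knockout arrays lay above all wild-type arrays, a pattern that 10.7% of all tested probe sets showed. In the reverse order every knockout array lies under every wild-type array. By the 1 probe set that stands for each gene, it was seen in 0 genes of the list. Of all tested probe sets, 9.36% showed it. Among all 94 tested probe sets of these genes, 47 were higher without overlap and 2 were lower without overlap, 1 of Cdc7 and 1 of Orc4. Taken by the same rule of 1 probe set per gene, 12.6% of the 12947 tested genes were higher without overlap. Differences of at least 1.5-fold were seen in 17 genes, against 5.83% of all tested probe sets. The genes also moved together between arrays, with knockout replicate 2 the lowest knockout array in 46 of the 52. These are therefore not counts of genes that vary independently.

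None of the 52 genes passed an adjusted p of 0.05 in limma (Benjamini-Hochberg over 27022 probe sets), a threshold that 8 probe sets passed, 0.0296% of those tested, and that number ranged from 0 to 13 when 1 array was left out. At an unadjusted p under 0.05, 35 of the 52 genes were higher and 0 lower, where 7.32% of all tested probe sets were higher and 6.31% lower. After centring each array on its median, 28 genes were higher and 0 lower, with 4.59% of all tested probe sets higher and 8.46% lower. With only the arrays free of bacterial control RNA, 3 knockout arrays and 1 wild-type array, 19 genes were higher and 0 lower, with 4.98% of all tested probe sets higher. In that fit the spread comes from the knockout arrays alone, and the lone wild-type array is assumed to vary like them. By the probe set of highest mean signal, which stands for each gene here, the smallest adjusted p on the list was 0.108, for Mcm5. None of the 94 tested probe sets of these genes passed the adjusted threshold either. At an unadjusted limma p under 0.05, 53 of the 94 were higher and 1 was lower. With 3 arrays a group an exact two-sided permutation test of a single gene cannot give a p under 0.1.

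**Figure D1:**
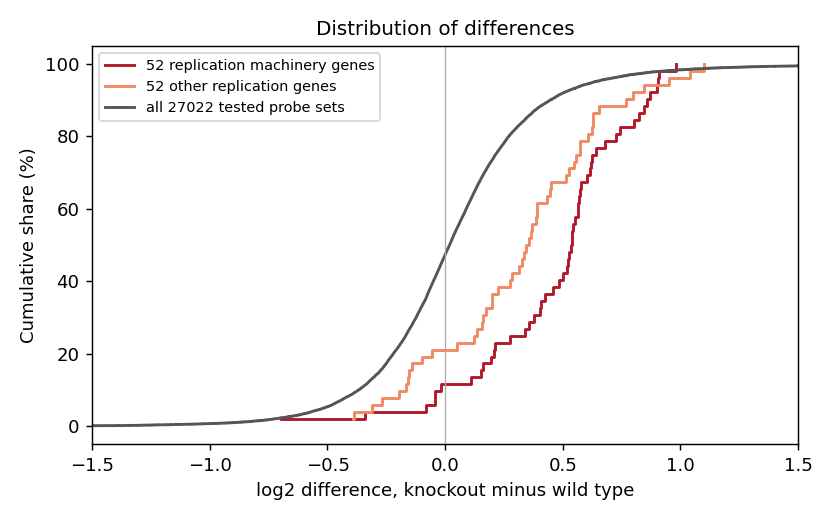
Cumulative share of genes or probe sets (vertical axis, percent) at or below a log2 difference, knockout minus wild type (horizontal axis), for the 52 replication machinery genes, 52 other replication genes and all 27022 tested probe sets. Around the middle of the distribution the curve of the machinery genes lies to the right of the curve of all probe sets, with medians of 0.54 and 0.02. The largest difference is 0.98 among the machinery genes and 3.90 among all probe sets. The horizontal axis is drawn from -1.5 to 1.5.

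Carm1 itself had signals of 395, 374 and 511 on the knockout arrays, against 814, 678 and 865 on the wild-type arrays. All knockout values lay below all wild-type values, at -0.89 on the log2 scale (SE 0.16, limma adjusted p = 0.105). Whether its probe set lies inside the deletion is not known here, so it is a limited check of the labels, and the set may also bind other transcripts.

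The arrays were not alike in other respects. Arrays correlated with each other between 0.906 and 0.926 on the log2 scale. By Xist and Y chromosome transcripts, knockout replicate 2 and wild type replicate 3 were male, while 4 arrays were female. Bacterial control RNA, which can be added to a sample during preparation, had a median signal between 6.92 and 14.1 on the knockout arrays, against 579 and 375 on wild type replicates 1 and 3 and 3.77 on wild type replicate 2. Counts and medians without these arrays stand beside the results they touch.

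Promoters of some of these genes carry the letters that E2F factors bind, and 4 of them are printed here because they show where such a match lies in genes of the helicase, licensing, firing and polymerase groups. RefSeq promoter windows on the mouse build GRCm38.p6, from 250 bases before to 50 bases after a gene's start, were found for 45 of the 54 genes. They were searched on both strands for TTTCCCGC, TTTGGCGC, TTTCGCGC and TTTGCCGC. A match was found in 15 of 45 genes, or 33.3%, against 2.6% of the 27025 genes with a window. Capitals mark the matches in the sequences, which run 5′ to 3′ on the gene's own strand. Positions are those of a match's first printed base, counted from 0 at the base that follows the 250 upstream bases.
Mcm5: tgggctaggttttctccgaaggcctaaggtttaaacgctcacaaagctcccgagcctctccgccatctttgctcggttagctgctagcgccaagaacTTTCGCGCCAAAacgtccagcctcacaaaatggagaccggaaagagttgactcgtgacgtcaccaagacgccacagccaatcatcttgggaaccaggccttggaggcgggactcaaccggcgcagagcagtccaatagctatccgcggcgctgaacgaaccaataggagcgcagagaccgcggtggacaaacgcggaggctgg
Cdt1: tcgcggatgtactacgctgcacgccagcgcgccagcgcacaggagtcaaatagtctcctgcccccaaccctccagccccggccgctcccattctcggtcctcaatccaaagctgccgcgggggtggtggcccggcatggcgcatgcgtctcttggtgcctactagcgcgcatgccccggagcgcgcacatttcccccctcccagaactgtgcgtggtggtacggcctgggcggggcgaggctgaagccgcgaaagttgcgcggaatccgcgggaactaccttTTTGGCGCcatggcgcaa
Gins3: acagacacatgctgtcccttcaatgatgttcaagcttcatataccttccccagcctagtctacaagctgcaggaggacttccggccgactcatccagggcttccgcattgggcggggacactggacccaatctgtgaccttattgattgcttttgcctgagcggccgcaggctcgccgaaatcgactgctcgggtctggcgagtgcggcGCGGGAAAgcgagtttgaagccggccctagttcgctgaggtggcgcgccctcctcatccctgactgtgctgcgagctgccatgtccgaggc
Pole2: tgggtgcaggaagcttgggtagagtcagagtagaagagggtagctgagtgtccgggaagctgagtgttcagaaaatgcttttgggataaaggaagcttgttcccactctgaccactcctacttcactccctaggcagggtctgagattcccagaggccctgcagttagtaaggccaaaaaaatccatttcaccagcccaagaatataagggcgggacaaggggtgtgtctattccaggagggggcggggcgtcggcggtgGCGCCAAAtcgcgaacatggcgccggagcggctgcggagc
The Mcm5 window lies at chr8:75109259-75109558 on the plus strand and holds overlapping matches on opposite strands, which begin at -153 and -149. For Cdt1 the window is chr8:122567765-122568064 on the plus strand, with a match at 32, inside the transcribed part. The Gins3 window is chr8:95633309-95633608 on the plus strand and its match, on the opposite strand, begins at -41. In the Pole2 window, chr12:69228141-69228440 on the minus strand, the match begins at 10, also on the opposite strand. Genes with a match were Cdc6, Cdt1, Gins3, Lig1, Mcm3, Mcm5, Mcm6, Mcm7, Orc1, Orc3, Pola1, Pold1, Pole2, Rfc3 and Uhrf1. A match is a spelling in the DNA and not a measured binding site.

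The 15 genes with a match had a median log2 difference of 0.62, from -0.70 to 0.98, and 10 of them had no overlap between the groups. The 28 tested genes whose windows held none of these letters had a median of 0.48, from -0.04 to 0.91, with 14 of them showing no overlap. The other 9 genes had no window in the table and a median of 0.53. Cell cycle genes of G2 and M phase are regulated through other elements, the CCAAT box and the CHR element (TTTGAA or TTCGAA). Of 16 such marker genes with a window, 12 (75%) held a CHR spelling, against 9 of 45 replication machinery genes (20%) and 21.7% of all genes. CCAAT was found in 26 of the 45 replication machinery genes, 57.8%, and in 41.1% of all genes.

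**Figure D2:**
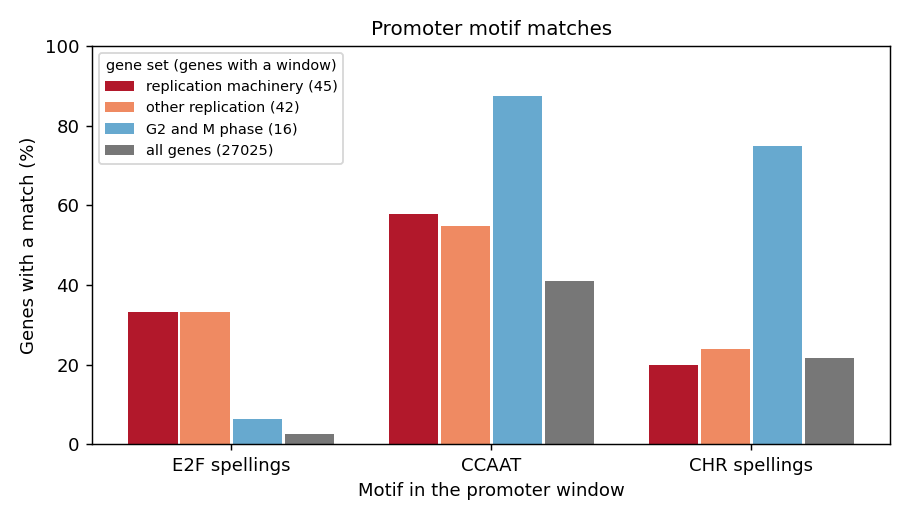
Share of genes (vertical axis, percent) whose RefSeq promoter window held a match to E2F, CCAAT or CHR spellings on either strand, for replication machinery genes, other replication genes, G2 and M phase markers and all genes. The replication machinery and the other replication genes each have 33.3% of genes with an E2F match, against 2.6% of all genes.

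Licensing genes, 9 in all, had a median of 0.16 and were not uniform. Subunits of the origin recognition complex other than Orc1 and Orc6 showed small differences at their brightest probe sets. Orc2 was at 0.16, Orc3 at 0.11, Orc4 at -0.04 and Orc5 at -0.02, and the groups overlapped in all 4. Another set of Orc4 read 520, 552 and 538 on the knockout arrays, against 613, 656 and 700 on the wild-type arrays. The difference there was -0.29, lower in knockout with no overlap. The remaining tested set of Orc4 differed by -0.03 with overlap. Orc5 had signals of 1168, 960.2 and 979 on the knockout arrays, against 1078, 1019 and 1039 on the wild-type arrays. The factors that load and restrain the helicase were higher. Cdc6, the ATPase that recruits the helicase with Cdt1, had signals of 376, 259 and 303 on the knockout arrays, against 111, 177 and 197 on the wild-type arrays. It differed by 1.97-fold (95% interval 1.3 to 2.98), the largest difference on the list. Cdt1 had signals of 1842, 1533 and 1941 on the knockout arrays, against 1108, 1243 and 1265 on the wild-type arrays, 1.47-fold higher with no overlap, and its second tested probe set differed by 0.53. Gmnn, encoding geminin, which blocks Cdt1 after S phase has begun, was at 1544, 1301 and 1795 on the knockout arrays, against 1162, 1168 and 1144 on the wild-type arrays, also without overlap.

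Orc6 and Orc1 were less clear. Signals of Orc6 were 1108, 838 and 1034 on the knockout arrays, against 893, 782 and 656 on the wild-type arrays, with a log2 difference of 0.36 and overlap of knockout replicate 2 with wild type replicate 1. Orc1, the subunit whose protein is degraded after origins fire in human cells, gave opposite directions at its 2 probe sets. At the brighter one the signals were 137, 67.6 and 161 on the knockout arrays, against 144, 206 and 213 on the wild-type arrays, a difference of -0.70 with overlap. At the other, the knockout arrays read 134, 122 and 143 and the wild-type arrays 35.3, 71.4 and 80.8, a difference of 1.17 with no overlap. No direction is given for Orc1, although its brighter probe set places it among the 6 genes of negative difference.

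Subunits of the MCM helicase, the ring that opens the double helix, were all higher in knockout lung. The 6 genes had log2 differences from 0.52 for Mcm4 to 0.90 for Mcm5, with a median of 0.71, and 4 of them had no overlap between the groups. Mcm5 had signals of 2341, 1723 and 2629 on the knockout arrays, against 1011, 1218 and 1317 on the wild-type arrays. Its lowest knockout array lay above the highest wild-type array, and the difference was 1.87-fold (95% interval 1.43 to 2.44). A second probe set of Mcm5 differed by 0.91. Signals of Mcm7 were 3770.0, 2897 and 4001 on the knockout arrays, against 2316, 2377 and 2459 on the wild-type arrays, 1.48-fold higher with no overlap, and wild-type arrays lay close together. The other 3 probe sets of Mcm7 differed by 0.35 to 0.59.

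Among the helicase genes, Mcm4 and Mcm6 were the ones whose groups overlapped. Mcm4 read 1688, 1353 and 1649 on the knockout arrays, against 736, 1387 and 1258 on the wild-type arrays. Knockout replicate 2 lay just below wild type replicate 2, and wild type replicate 1 lay far under all other arrays. For Mcm6 the signals were 2052, 1452 and 2361 on the knockout arrays, against 884, 733 and 1668 on the wild-type arrays, and wild type replicate 3 exceeded the lowest knockout array. Its second probe set differed by 0.98 with no overlap. Mcm2 was at 823, 636 and 722 on the knockout arrays, against 423, 511 and 529 on the wild-type arrays, with a difference of 0.58, whereas its second probe set differed by 0.08 and its groups overlapped. All 5 tested probe sets of Mcm3 were higher, from 0.64 to 1.15. The groups overlapped at the sets that differed by 0.67, 0.74 and 1.15, and not at those of 0.84 and 0.64.

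Factors that fire a licensed origin were higher in 7 of 8 genes, with a median of 0.57, and 4 had no overlap. Gins1, a subunit of the GINS complex that holds the active helicase together, had signals of 497, 367 and 454 on the knockout arrays, against 215, 279 and 259.6 on the wild-type arrays. That was 1.75-fold higher (95% interval 1.31 to 2.33). Gins2 differed by 0.73 with no overlap and Gins3 by 0.52 with overlap. At a second set of Gins2 the difference was 0.77 with overlap. The exception was Gins4, whose signals of 1308, 1043 and 1321 on the knockout arrays, against 1354, 1217 and 1296 on the wild-type arrays overlapped, with a difference of -0.08. The 4 subunits of this complex thus ranged from -0.08 to 0.80. Cdc45, which joins MCM and GINS in the active helicase, was at 251, 237 and 183 on the knockout arrays, against 127, 146 and 178 on the wild-type arrays, with the lowest knockout array only just above the highest wild-type array. Dbf4, the activator of the CDC7 kinase, was at 1285, 1004 and 1167 on the knockout arrays, against 662, 897 and 776 on the wild-type arrays, 1.48-fold higher. Cdc7 itself differed by 0.34 at its brighter probe set with overlap, and by -0.25 at the other, whose knockout values were all under the wild-type values. Mcm10, a loading factor of the polymerases, was at 239, 115 and 189 on the knockout arrays, against 101, 117 and 108 on the wild-type arrays, and knockout replicate 2 lay within the wild-type range.

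**Figure D3:**
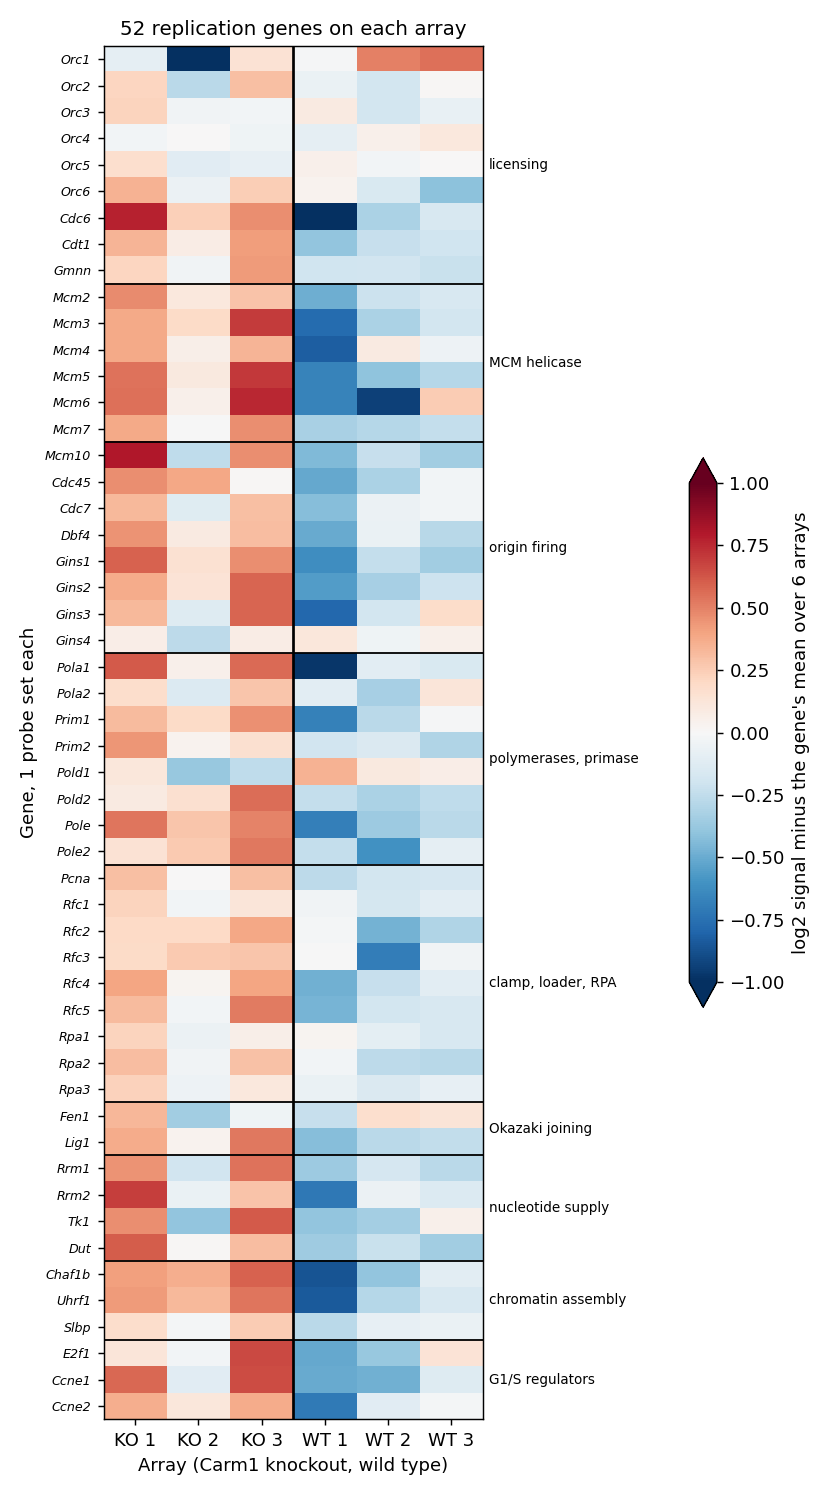
Log2 signal of each of the 52 genes (rows, grouped by role) on each array (columns, 3 knockout then 3 wild type) minus that gene's mean over the 6 arrays, with colours saturating at -1 and 1. Knockout replicates 1 and 3 are above the gene mean for most genes, and wild type replicate 1 is the lowest of the 6 arrays for 32 genes.

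DNA polymerase genes were higher in 7 of 8 cases, with a median of 0.58 and no overlap in 6. Pole, the catalytic subunit of the leading-strand polymerase epsilon, had signals of 271, 227 and 263 on the knockout arrays, against 117, 146 and 156 on the wild-type arrays. This was 1.83-fold higher (95% interval 1.32 to 2.54). Its partner Pole2 was at 671, 727 and 879 on the knockout arrays, against 515, 399.9 and 573 on the wild-type arrays, a difference of 0.62. Prim1, the catalytic primase subunit that lays down RNA primers, read 1305, 1198 and 1435 on the knockout arrays, against 655, 868 and 1038 on the wild-type arrays. It differed by 0.64, and by 1.06 at its second probe set, with no overlap at either. Pola1, the catalytic subunit of polymerase alpha, was at 478, 323 and 463 on the knockout arrays, against 159, 289.7 and 281 on the wild-type arrays, with wild type replicate 1 far below the other wild-type arrays. Pola2, its accessory subunit, was at 401, 324 and 431 on the knockout arrays, against 331, 284 and 388 on the wild-type arrays, and its difference of 0.21 lay within the spread of the arrays.

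Polymerase delta, which copies the lagging strand, had subunits that differed. Pold2 was at 846, 886 and 1171 on the knockout arrays, against 676, 637 and 667 on the wild-type arrays, 1.45-fold higher with no overlap. Pold1, the catalytic subunit, was at 332, 236 and 257 on the knockout arrays, against 389.9, 327 and 321 on the wild-type arrays, a difference of -0.34 with overlap, and at its second probe set the difference was 0.08. Neither probe set of Pold1 had an unadjusted p under 0.05 in limma.

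Clamp, clamp loader and single-strand binding genes were higher in 9 of 9 cases, by log2 differences from 0.15 to 0.54. Pcna, the ring that tethers polymerases to DNA, had signals of 11652, 9474 and 11668 on the knockout arrays, against 7905, 8345 and 8399.6 on the wild-type arrays. The difference of 1.32-fold (95% interval 1.12 to 1.57) was without overlap. In all 5 genes of the clamp loader, which opens that ring, the groups did not overlap at the brightest probe set. At other sets of Rfc1, Rfc2 and Rfc3, with differences of 0.29, 0.39 and 0.23, the groups overlapped. Further sets of Rfc1 and Rfc2, at 0.38 and 0.37, showed no overlap. Rfc4 had signals of 1495, 1155 and 1492 on the knockout arrays, against 816, 968 and 1055 on the wild-type arrays, a difference of 0.54, with 0.77 at its second probe set. Rfc1, the large subunit, differed by 0.21, the least of the 5. The proteins that coat single-stranded DNA are encoded by Rpa1, Rpa2 and Rpa3. Rpa1 was at 4674, 3830.0 and 4171 on the knockout arrays, against 4079.5, 3742 and 3570.2 on the wild-type arrays, with a difference of 0.15 and overlap, while Rpa2 and Rpa3 differed by 0.38 and 0.19.

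Joining of lagging-strand fragments was represented by Lig1 and Fen1. Lig1, the replicative DNA ligase, had signals of 896, 710.0 and 1000.3 on the knockout arrays, against 517, 575 and 584 on the wild-type arrays, 1.54-fold higher with no overlap. Fen1, the nuclease that trims the flaps between fragments, was at 1336, 835 and 1029 on the knockout arrays, against 905, 1191 and 1165 on the wild-type arrays at its brighter probe set, where the groups overlapped at a difference of -0.04. At its second probe set the knockout arrays read 870, 506 and 710.5 and the wild-type arrays 416, 483 and 489, a difference of 0.56 with no overlap. The brighter set is of a type that can bind other transcripts.

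Genes of nucleotide supply were higher in all 4 tested cases and overlapped in 3 of them. Dut, encoding the enzyme that keeps uracil out of DNA, had signals of 1809, 1197 and 1469 on the knockout arrays, against 928, 1020.0 and 936 on the wild-type arrays, 1.53-fold higher and the only gene of the 4 without overlap. Rrm2, the regulated subunit of ribonucleotide reductase, was at 3459.7, 2040.0 and 2602 on the knockout arrays, against 1304, 2057 and 1948 on the wild-type arrays. Knockout replicate 2 lay just below wild type replicate 2, and the difference was 0.60. Rrm1, the large subunit of that enzyme, differed by 0.53. Tk1, thymidine kinase of the salvage pathway, was at 740.2, 409 and 821 on the knockout arrays, against 408, 425 and 556 on the wild-type arrays, with knockout replicate 2 inside the wild-type range. The 4 probe sets of Tyms, all under the filter and not tested, were higher in the knockout mean. The brightest by mean signal read 73.6, 69.8 and 59.5 on the knockout arrays and 11.1, 48.4 and 54.8 on the wild-type arrays.

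Genes of chromatin assembly and histone supply were higher without overlap at the brightest probe set in all 3 that were measured. A second tested set of Uhrf1 differed by 0.86 with overlap, and a second of Slbp by 0.98 without overlap. Uhrf1, which guides maintenance of DNA methylation behind the fork, had signals of 774, 721 and 838 on the knockout arrays, against 323, 473 and 517 on the wild-type arrays, 1.81-fold higher (95% interval 1.35 to 2.43). Chaf1b, a subunit of the chaperone that deposits histones on new DNA, was at 298, 288 and 338 on the knockout arrays, against 123, 171 and 209 on the wild-type arrays, 1.88-fold higher. Slbp, the protein that binds histone messages, was at 3534, 3079.8 and 3724 on the knockout arrays, against 2591, 2958 and 2989 on the wild-type arrays, 1.21-fold higher. Of the regulators that trigger entry into S phase, cyclin E genes were higher without overlap at their brightest probe sets. The second set of Ccne1 differed by 1.27 with overlap, and knockout replicate 2 lay below wild type replicate 2 there. At its brightest set Ccne1 had signals of 356, 222 and 378 on the knockout arrays, against 169, 172 and 219 on the wild-type arrays. Its difference was 0.74. Ccne2 was at 906, 759 and 908 on the knockout arrays, against 430.3, 649.9 and 692 on the wild-type arrays, a difference of 0.56. E2f1, the transcription factor of the group, was at 356, 321 and 517 on the knockout arrays, against 229.7, 251 and 360.3 on the wild-type arrays, where wild type replicate 3 exceeded 2 of the knockout arrays. Its difference of 0.50 had an unadjusted limma p of 0.0669, and at its second tested probe set the difference was 0.10.

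**Figure D4:**
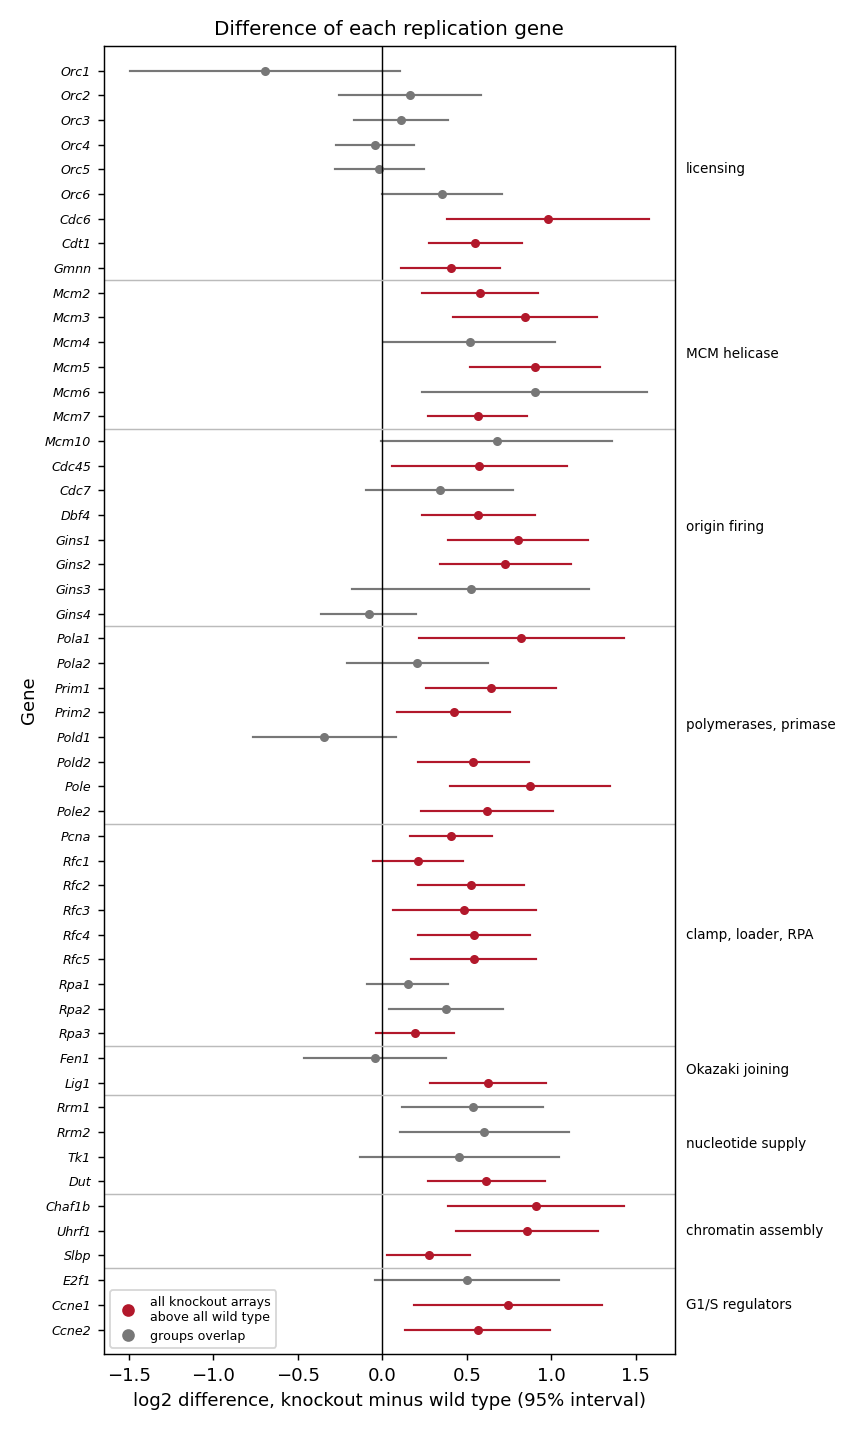
Log2 difference of each of the 52 genes (points, knockout minus wild type) with its 95% interval from limma (bars), grouped by role. Red points are the 31 genes in which all knockout arrays lay above all wild-type arrays, and the lowest points are Orc1 at -0.70 and Pold1 at -0.34.

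Genes with several probe sets mostly gave the same direction. Of 31 genes with more than 1 tested probe set, 25 were higher at all of them and 5 had mixed directions, namely Cdc7, Fen1, Orc1, Orc3 and Pold1. Orc4 was lower at all 3 of its tested sets. Of the 52 chosen sets, 8 are of a type that can bind transcripts of other genes, those of Ccne1, Fen1, Gins2, Mcm3, Mcm5, Mcm7, Pold1 and Rrm2.

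Replication genes differed between arrays of the same genotype as well. The mean over the 52 genes of the log2 signal, relative to each gene's mean over the 6 arrays, was 0.35, -0.01 and 0.35 on the knockout arrays, against -0.37, -0.22 and -0.11 on the wild-type arrays. The lowest knockout array, replicate 2, lay above the highest wild-type array, replicate 3, by a small margin, and these are the male arrays. Knockout replicate 2 was the lowest of the 3 knockout arrays in 46 of 52 genes, as it was in 26.8% of all tested probe sets. Wild type replicate 1 was the lowest of all 6 arrays in 32 genes, as it was in 22.9% of all tested probe sets.

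Within the female arrays the median difference of the 52 genes was 0.73, against 0.02 over all tested probe sets. There, 49 of 52 genes were higher, as were 53.2% of all tested probe sets. Of the genes, 45 were higher without overlap, a pattern that 21.3% of all tested probe sets showed. Between the male arrays, 1 of each genotype and so with no replicate check, the median was 0.15, against 0.006 over all tested probe sets. There, 39 of 52 genes were higher, as were 50.8% of all tested probe sets. The other 13 genes were lower in the male knockout array, and 7 of them were higher over all arrays, namely Orc2, Mcm6, Cdc7, Gins3, Pola2, Tk1 and E2f1, with Mcm6 at -0.20 and Tk1 at -0.44. As medians of the role groups, the male difference ran from -0.10 for the joining of lagging-strand fragments to 0.46 for chromatin assembly, with 0.25 for the MCM helicase, 0.07 for nucleotide supply, 0.04 for licensing and 0.02 for G1/S regulators. Against the only wild-type array without bacterial control RNA the median of the 52 genes was 0.48, 48 of them were higher and 39 were higher without overlap, as were 31.8% of all tested probe sets. Without knockout replicate 2 and wild type replicate 1 the median was 0.57, with 46 genes higher without overlap, against 22.2% of all tested probe sets. The part of sex, of the control RNA and of single arrays in these differences was not tested further.

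**Figure D5:**
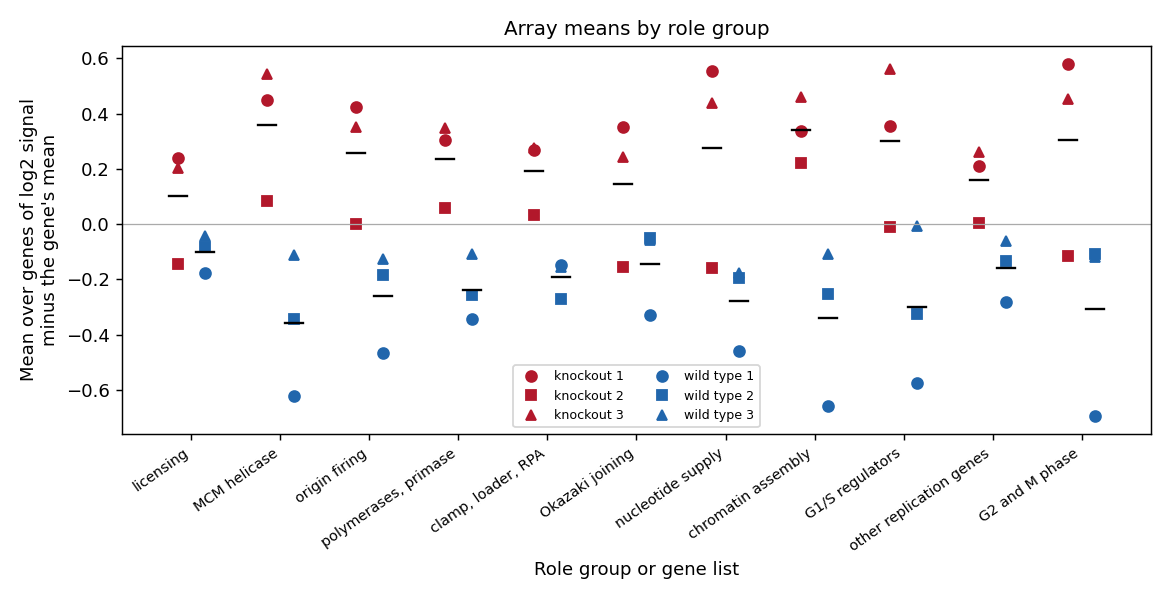
Mean over the genes of each role group of the log2 signal minus the gene's mean over 6 arrays (vertical axis), for each array, knockout left of wild type, with bars at the group means. The mean over all 52 genes is not drawn, and is -0.01 for knockout replicate 2 and between -0.37 and -0.11 for the wild-type arrays. In G2 and M phase genes knockout replicate 2, at -0.11, is level with wild type replicates 2 and 3 at -0.11 and -0.12. Wild type replicate 1 is at -0.69 there.

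Other genes of DNA replication, a list of 53 that excludes the genes above, were also mostly higher in knockout lung. Of the 52 that were tested, 41 were higher and 11 lower, with a median of 0.35, and 17 were higher without overlap, which is 32.7% of them beside the 10.7% of all tested probe sets. Without knockout replicate 2 the number higher without overlap was 33, where 15.2% of all tested probe sets were, and without knockout replicate 3 it was 17, where 14.9% were. After centring each array on its median it was 12, where 6.72% of all tested probe sets were. With all arrays brought to the same distribution of values (quantile normalization) it was 14, where 9.76% were. None passed the adjusted limma threshold, and 19 were higher and 2 lower at an unadjusted p under 0.05, beside 7.32% and 6.31% of all tested probe sets. Rnaseh2c, a subunit of the enzyme that removes ribonucleotides from DNA, had the smallest p, with signals of 2604, 2641 and 2556 on the knockout arrays, against 1746, 1785 and 1531 on the wild-type arrays, 1.54-fold higher (limma adjusted p = 0.0909). That probe set is of a type that can bind other transcripts. A set of Rnaseh2c outside that type differed by 0.40 (limma adjusted p = 0.179), and another of that type by 0.67, both without overlap. Clspn, encoding the checkpoint adaptor claspin, was at 514, 327 and 456 on the knockout arrays, against 150.3, 238 and 218 on the wild-type arrays, 2.14-fold higher. Donson, a replication fork protein, was at 425, 447 and 483 on the knockout arrays, against 152, 264 and 262 on the wild-type arrays, and it differed by 1.04. Tipin, of the fork protection complex, differed by 0.57 and Lrwd1, which associates with the origin recognition complex, by 0.39, both without overlap. The Lrwd1 set can also bind other transcripts, and its second set differed by 0.40 without overlap. Those lower without overlap were the mitochondrial thymidine kinase Tk2 at -0.39, the factor E2f2 at -0.39 and Samhd1, which degrades deoxynucleotides, at -0.27.

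Each of the 17 measured markers of G2 and M phase was higher in knockout, at a median of 0.61, and in 7 of them, 41.2%, the groups did not overlap, beside the 10.7% of all tested probe sets. Mki67 averaged 3978 ± 1085 in knockout and 2210.2 ± 848 in wild type (SD, n = 3 each), with overlap.

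The RNA came from lung tissue and not from sorted cells, so fewer cells of a type and less RNA per cell cannot be told apart. Lung markers were present on all arrays, with the type I cell marker Ager at 23063 ± 3484 in knockout and 34088 ± 8622 in wild type. All 8 measured markers of alveolar type I cells, the flat non-dividing cells of gas exchange, were lower in knockout, and their summed signal ran from 72779 to 90741 on knockout arrays, against 105530 to 143590 on wild-type arrays. Of 7 endothelial markers 6 were lower, with sums from 12829 to 15094 on knockout arrays, against 17370 to 19614 on wild-type arrays. All 5 measured mast cell and basophil markers were higher, 3 of them without overlap, while Kit and Ms4a2 overlapped. Sums of the mast cell and basophil markers ran from 2817 to 5105 on knockout arrays, against 1234 to 1891 on wild-type arrays. Of 4 measured erythroid markers 3 were higher with overlap in each, and their sums ran from 10015 to 13661 on knockout arrays, against 9398 to 16334 on wild-type arrays. Higher were also 5 of 5 smooth muscle, 5 of 6 airway, 4 of 7 fibroblast, 3 of 6 macrophage and 2 of 7 type II cell markers, and 0 of 1 lymphocyte marker. Of all tested probe sets 52.7% were higher. Without overlap, 2 smooth muscle, 2 airway, 2 fibroblast and 1 macrophage markers were higher, beside 10.7% of all tested probe sets. Lower without overlap were 6 type I, 6 endothelial, 2 fibroblast and 1 type II cell markers, beside 9.36% of all tested probe sets. None of the measured markers was at 0, and Mcpt4, a mast cell protease, was under the filter. The part of these cell types in the level of the replication genes was not tested.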

How the data were processed

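The authors deposited 1 intensity per probe set and array, unlogged. The submitters' processing notes name MAS5 and no version of it. After trimming 2% of values at both ends each array had a mean of 500.0, so arrays had been scaled to 1 level, and none was normalized further here. RNA was column-purified and labelled as biotin cRNA, per the labels' protocols. Symbols came from the platform annotation, updated by gene ID through RefSeq (GRCm38.p6). Of 45101 probe sets, 64 controls, 932 with several symbols and 9160 unnamed here were not named. Probe sets above the 40th percentile of mean log2 signal (59.7) were tested, 27022 in all. limma 3.58.1 in R 4.3.3 (lmFit, eBayes with trend, two-sided) was fitted on all of them, with Benjamini-Hochberg adjustment. Each gene is given by its tested probe set of highest mean. Means carry the SD over 3 arrays, and the number of arrays limits precision. The labels do not name separate animals or litters, so p-values measure only the variation between these 6 samples, which may be technical. The fit was checked on simulated arrays with known changes, where most changes of 1.5-fold and of 2-fold did not pass the adjusted threshold.

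The members, lists and tests were chosen with earlier results of these data known. Every array's value is given, in each role group, for the genes of smallest p, of largest and smallest difference and of highest mean, and for further genes picked for their role after their values were seen. Of the other replication genes the 5 of smallest p are given, and those lower without overlap were added after their values were seen. The promoters printed are those of the gene of smallest p among genes with a match, in 4 role groups. Alternatives covered the variance model, scaling, the filter, the choice of probe set, sex, bacterial control RNA, the replicate number as a block and each array left out.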

Additional observations from a re-analysis of the deposited data

How the results depend on the processing

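Across 21 planned settings none of the 52 genes passed the adjusted limma threshold, and 46 genes kept their direction in every setting in which they were measured. The count of probe sets past the threshold, 8 in all, was 0 without a variance trend, 40 with robust variance, 0 with the replicate block, 4 with sex as a term, 2 with bacterial control RNA as a term and 3 on arrays without it, and 0 to 13 when 1 array was left out (0 when the array left out was knockout replicate 2 or 3 or wild type replicate 1 or 3, 13 for knockout replicate 1 and 2 for wild type replicate 2). The 35 genes at an unadjusted p under 0.05 became 19 with bacterial control RNA as a term and 19 on arrays without it, while the share of all probe sets at that p, 13.6%, became 7.43% and 7.75%. There were 34 (11.3% of all) with the replicate block (samples of the same number did not deviate together, with correlations of -0.14, -0.38 and -0.01) and 27 to 38 (8.97% to 12.9% of all) with 1 array left out, where 1 gene was lower at that p without knockout replicate 1 or 3. Leaving out 1 array gave 46 to 49 genes higher, 31 to 44 of them without overlap (14.9% to 17.2% of all probe sets) and a median of 0.46 to 0.65. The other replication genes then had 17 to 33 higher without overlap, 33 without knockout replicate 2, and a median of 0.27 to 0.42; 28 were higher without overlap on arrays without bacterial control RNA, as were 31.8% of all probe sets. Chosen after seeing the data, female arrays gave a median of 0.73, male arrays 0.15 and the arrays other than knockout replicate 2 and wild type replicate 1 gave 0.57.

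In the planned settings directions turned for 6 genes; between the male arrays 7 further genes were below 0. Orc5 was at 0.0185 with bacterial control RNA as a term and on arrays without it, and ran from -0.108 to 0.034 with 1 array left out (above 0 without knockout replicate 2 or 3 or wild type replicate 1). Gins4 was at 0.000197 in both of those settings and ran from -0.141 to 0.0298 with 1 array left out (above 0 without knockout replicate 2). Fen1 ran from -0.219 to 0.12 with 1 array left out (above 0 without knockout replicate 2 or wild type replicate 2 or 3), and was at 0.56 at its probe set of smallest p and 0.26 as a mean of its sets. Orc1 was at 1.17 and 0.24 by those rules, Orc3 at -0.079 as a mean of its sets and Pold1 at 0.078 at its set outside the shared types. Apart from the choice of probe set, the cause was not tested.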
